A study of Homo sapiens with 18 samples.

Results

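Clones 47C2 and 45G3 are separately derived lines of HCT116, an established human colorectal carcinoma line, and both carry IDH2 R172K on 1 allele (R172K/+). The comparison took every array that the labels assign to either clone, 2 of 47C2 and 2 of 45G3, which are 4 of the 18 arrays of the series. The other 14 arrays belong to 7 clones, 2 biological replicates of each. These are the parental line, 2 IDH1 R132H/+ clones (2C11 and 2H1), 2 IDH2 R140Q/+ clones (8G12 and 17H5), and 2 IDH1 R132C/+ clones, 3A4 and 16F8, the latter without expression of its mutant allele. All clones were grown for 6 days without treatment, total RNA was amplified and labelled with biotin, and gene expression was read on one-colour Affymetrix arrays of 54675 probe sets. The series is about IDH mutations and EMT, the epithelial-mesenchymal transition, and the pair 47C2 and 45G3 shows how far 2 lines of the same mutant genotype lie apart. Each line is 1 clone, so a test between them compares clones and not genotypes, and its error is the spread between replicate arrays, for which the labels name no separate culture beyond the word biological.

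IDH2 encodes the mitochondrial NADP-dependent isocitrate dehydrogenase, which converts isocitrate to 2-oxoglutarate. The R172K enzyme instead reduces 2-oxoglutarate to 2-hydroxyglutarate, a metabolite that can inhibit 2-oxoglutarate-dependent dioxygenases such as histone and DNA demethylases and prolyl hydroxylases. In EMT, epithelial cells lose junction proteins such as E-cadherin and gain mesenchymal proteins such as vimentin under repressors that include ZEB1, which the miR-200 family holds down.

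The arrays of the pair differed in how well they repeated. The replicates of 47C2 correlated at 0.9952 over 12541 genes, the highest value of the 9 clones, and those of 45G3 at 0.9874, the lowest. The SD of the difference between replicates was 0.22 in 47C2 and 0.35 in 45G3 on the log2 scale, and 58 genes (0.463%) against 162 genes (1.29%) differed by more than 2-fold. Replicate 2 of 45G3 had the lowest ratio of 3′ to 5′ ACTB probe signal of all arrays, 1.59 against 2.29 in its replicate and 2.11 and 2.21 in 47C2. Replicate 1 of 45G3 had the lowest spiked poly-A controls, with a geometric mean signal of 55.6 against 85.2 in its replicate and 92.2 and 92.8 in 47C2. At genes of chromosome Y, 1 of the 18 arrays did not match the other array of its clone. The part of these features in the results was not tested, and counts are therefore given also without single arrays.

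Both clones expressed most epithelial markers, many of them below the level of the parental line. Of 37 tested, 22 were lower than in the parental line in 47C2 and 20 in 45G3 (adjusted p under 0.05 in limma). None was higher, and the median log2 differences were -0.56 and -0.53. Over all 12541 genes 1732 and 1841 were lower. The array medians used next, 12.3 to 15.6, are a low bar. Of the 37 epithelial markers on the array, 36 in 47C2 and all 37 in 45G3 lay above the array's median in both replicates, and their summed signal was 23094.1 to 23128.1 in 47C2 and 24510.3 to 25268.6 in 45G3. Of 10 fibroblast, 10 haematopoietic and 8 endothelial markers, 1 of each list did so in each clone. These were COL1A1 at 192 to 286.8, LYZ at 22.2 to 47.4 and ESAM at 15.6 to 31.9. PTPRC, CDH5 and PDGFRA had signals no higher than 2.5 in either clone. Of 7 neural markers 5 lay above the median in both arrays of 47C2 and 4 in those of 45G3. The 7 had a summed signal of 2858.3 to 2980.4 and 2629.2 to 3067.2. Most of that sum came from TUBB3, a tubulin, at 2409.3 to 2824.5 in the 4 arrays. MAP2 was at 110.2 to 171.2, SNAP25 at 23.9 to 72, RBFOX3 at 24.2 to 32.4 and SYP at 9.3 to 22.3. The glial genes GFAP and OLIG2 were at 3.2 or less. The part of the neural markers in the results was not tested. In whole cultures such as these, fewer cells of a type and less RNA per cell cannot be told apart.

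The clones differed at 367 of the 12541 genes tested (2.93%), of which 235 were lower in 47C2 (1.87%) and the others higher (1.05%), at an adjusted p under 0.05 in a limma model of all 18 arrays. At an unadjusted p under 0.05 the number was 2098 (16.7%). Differences are given as 47C2 minus 45G3 on the scale of log2 (signal + 2.2), with a standard error (SE), and this scale understates differences of dim genes. The median difference of all genes was 0.01. Among the genes past the test, differences ran from 0.36 to 2.05 upwards, with a median of 0.70, and from -0.32 to -3.37 downwards, with a median of -0.78. At least 2-fold differences were found for 112 of them, 31 higher and 81 lower in 47C2. Other probe sets above the median were present for 181 of the 367 genes, and in 147 of these all had the same sign. In all 367 the 2 arrays of one clone lay above both arrays of the other, which held for 6270 (50%) of all genes, so the absence of overlap says little in groups of 2. The plot of mean signals shows the genes past the test along both edges of the cloud.

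**Figure D1:**
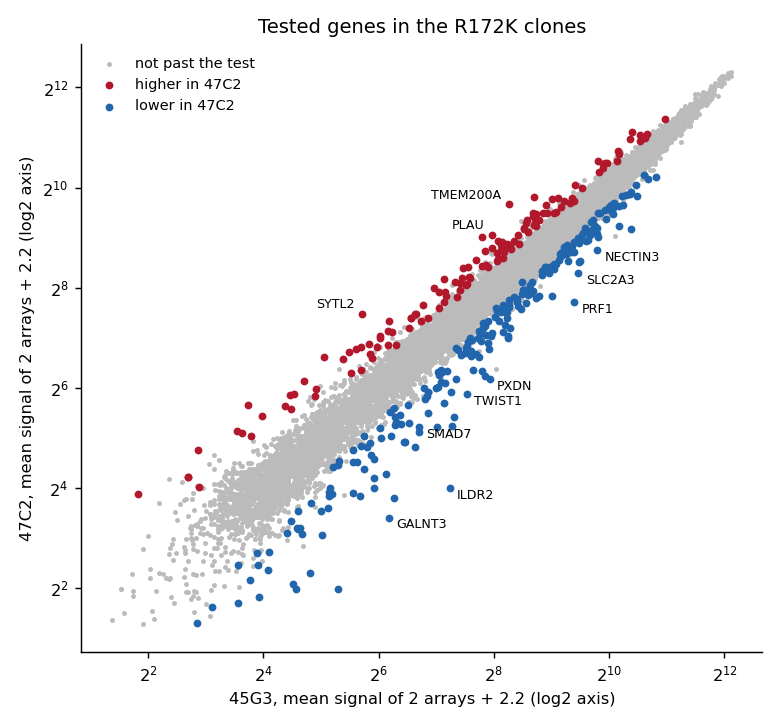
Mean signal of each tested gene in 45G3 (horizontal) and 47C2 (vertical), both plus 2.2 on log2 axes; each point is 1 gene, red where higher in 47C2 and blue where lower past the test (366 of the 367 genes are drawn). GALNT3 and ILDR2 stand farthest below the diagonal among the labelled genes, and SYTL2 and TMEM200A above it.

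The number depended on the arrays of both clones. Without replicate 1 of 47C2 it was 91 (0.726%; 0.199% higher and 0.526% lower), and without replicate 2 it was 94 (0.75%; 0.159% and 0.59%). Without replicate 1 of 45G3 it was 550 (4.39%; 2.1% and 2.29%), and without replicate 2 it was 230 (1.83%; 0.566% and 1.27%). Of the 367 genes, 66 passed the test without each of these 4 arrays in turn, 50 lower and 16 higher in 47C2. Of the 85 genes past the test that the naming rule selected, 29 were among them, and they are called stable below.

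Genes lower in 47C2 showed the larger differences. GALNT3, which starts mucin-type O-glycosylation by adding the first sugar to serine or threonine, had the smallest p-value of all genes, with signals of 8.9 and 7.8 in 47C2 and 61.3 and 80.2 in 45G3. Both arrays of 47C2 lay below the median of their array and both of 45G3 well above it, a difference of -2.78 ± 0.19 (SE, adjusted p = 4.19e-07), 6.87-fold on this scale. In the parental line GALNT3 had signals of 260.8 and 323.1, in 16F8 182.4 and 157, in 2H1 12.2 and 8.9 and in 3A4 31.1 and 32.1. 47C2 thus had a level near that of 2H1, and the mean of 45G3 lay between those of 3A4 and the remaining clones. The promoter of GALNT3 is shown because this gene separated the clones most clearly, and because ZEB1 and SNAI repressors, whose transcripts are described further on, bind E-boxes. The 250 bases before its start site (RefSeq, GRCh38.p14, chr2:165794248-165794497, minus strand) are printed 5′ to 3′ with the match to the E-box CAGGTG, found here on the opposite strand as CACCTG, in capitals:
GALNT3 promoter: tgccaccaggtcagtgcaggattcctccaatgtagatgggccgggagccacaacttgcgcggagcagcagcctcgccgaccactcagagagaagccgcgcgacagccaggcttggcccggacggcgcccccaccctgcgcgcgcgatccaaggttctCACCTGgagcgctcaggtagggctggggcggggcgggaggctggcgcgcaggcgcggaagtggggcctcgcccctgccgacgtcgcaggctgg
The match lies 93 bases before the start site. Searched on both strands, CAGGTG was found in 17.5% of 35116 promoters of this kind, in 16.3% of the promoters of tested genes, in 18.9% of those of genes higher in 47C2 and in 13.3% of those of genes lower in 47C2. A match describes the letters and is not evidence of binding.

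ILDR2, an immunoglobulin-like receptor of the angulin family, had the largest difference among genes with a signal of at least 100 in the brighter clone. Its signals were 12.8 and 14.4 in 47C2 and 172.5 and 123.6 in 45G3, a difference of -3.23 ± 0.24 (SE, adjusted p = 6.51e-07) or 9.39-fold. The 2 arrays of 47C2 were at the level of 2H1 (16 and 12.2) and 3A4 (12.6 and 13.4), and those of 45G3 at the level of 2C11 (140.6 and 113.6) and 8G12 (113.9 and 148.8). DPYSL3, a collapsin response mediator of the cytoskeleton, followed with 40.6 and 30.5 in 47C2 and 152.5 and 153.2 in 45G3 (-2.05 ± 0.21 (SE, adjusted p = 2.86e-05)). STON2, an adaptor of endocytosis, had 37.2 and 44.1 in 47C2 and 180.4 and 131.6 in 45G3 (-1.87 ± 0.18 (SE, adjusted p = 1.05e-05)). In both genes 47C2 again lay near 2H1 and 3A4, whose mean signals were 39.3 and 42.0 for DPYSL3 and 35.1 and 38.8 for STON2.

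For other genes 47C2 was the lowest of all 9 clones. PXDN, a peroxidase that cross-links collagen IV, had signals of 65.3 and 74.1 in 47C2 and 246.6 and 235.4 in 45G3, a difference of -1.76 ± 0.15 (SE, adjusted p = 2.07e-06), and the 7 other clones had means of 123.7 to 358. NETO2, an auxiliary subunit of kainate receptors, had 70.5 and 74.4 in 47C2 and 220.2 and 234.7 in 45G3 (-1.62 ± 0.13 (SE, adjusted p = 1.88e-06)). Its lowest mean among the 7 other clones was 139.7, in the parental line. TCEA3, a transcription elongation factor, had 43.8 and 26.2 in 47C2 and 132.4 and 120.2 in 45G3 (-1.83 ± 0.19 (SE, adjusted p = 3.73e-05)). In these 3 genes the arrays of 45G3 lay within the range of the 7 other clones. PRF1, which encodes perforin, differed in another way, with 231.9 and 183.2 in 47C2 and 709.5 and 630.5 in 45G3 (-1.69 ± 0.13 (SE, adjusted p = 6.51e-07)): 47C2 was close to 2C11 (191.6 and 191.4), 45G3 to the parental line (774 and 664.6).

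Dimmer genes outside the naming rule differed as well, and 2 of them are given here after their values were seen. SYK, a tyrosine kinase of immune and epithelial cells, had signals of 2.9 and 0.6 in 47C2 and 31.3 and 43.2 in 45G3 (-3.37 ± 0.30 (SE, adjusted p = 5.29e-06)), and ARHGAP24, an activator of GTP hydrolysis by Rac, had 40 and 55.7 in 47C2 and 10.1 and 12.1 in 45G3 (1.90 ± 0.25 (SE, adjusted p = 0.000301)). Both passed the test without each of the 4 arrays in turn. The difference of SYK was the largest of the genes shown, and that of ARHGAP24 was below the largest upward one, 2.05.

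The lowest genes also included transcription factors of development. TWIST1, a factor of mesoderm formation that is counted among the EMT inducers, had 55.8 and 56.8 in 47C2 and 227.8 and 138.9 in 45G3, a difference of -1.62 ± 0.20 (SE, adjusted p = 0.000166). All 7 other clones had mean signals of 134.85 to 164.25, so that 47C2 stood below every other clone and 45G3 did not. PAX6, a homeobox factor of eye and brain, had 44.4 and 41.7 in 47C2 and 127 and 99.4 in 45G3 (-1.34 ± 0.17 (SE, adjusted p = 0.000229)). Its 1 other probe set above the median had the opposite sign, so the call rests on 1 probe set. DACT1, an inhibitor in the Wnt pathway, had 49.7 and 49.1 in 47C2 and 129.4 and 147.4 in 45G3 (-1.44 ± 0.21 (SE, adjusted p = 0.00084)), and here 45G3 was the highest of the 9 clones.

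The genes higher in 47C2 had smaller differences. SYTL2, a Rab27 effector of vesicle transport, had 173.7 and 177.2 in 47C2 and 56.9 and 43.4 in 45G3, a difference of 1.77 ± 0.27 (SE, adjusted p = 0.000993) or 3.42-fold. TMEM200A had 817.4 and 798.2 in 47C2 and 185.8 and 422.1 in 45G3 (1.52 ± 0.22 (SE, adjusted p = 0.000723)), and the 2 arrays of 45G3 stood far apart. In both genes 47C2 lay below 2H1 and 3A4, whose mean signals were 313 and 414 for SYTL2 and 1142 and 1512 for TMEM200A. NPAS2, a circadian transcription factor, had 861.7 and 919.8 in 47C2 and 436.5 and 384.6 in 45G3 (1.12 ± 0.10 (SE, adjusted p = 8.68e-06)), with the same sign at all 4 further probe sets above the median. MECOM, a zinc-finger factor, had 546.9 and 482.7 in 47C2 and 249.8 and 189.2 in 45G3 (1.23 ± 0.14 (SE, adjusted p = 7.79e-05)). GFI1, a zinc-finger repressor with a role in secretory cells of the gut, had 290.8 and 282.4 in 47C2 and 144.7 and 131.1 in 45G3 (1.05 ± 0.13 (SE, adjusted p = 0.00015)). In each of these 3 regulators both arrays of 47C2 exceeded both of 45G3 by a margin larger than the distance between replicates. TSPAN1, a tetraspanin, had 152.9 and 166.5 in 47C2 and 69.3 and 71.4 in 45G3 (1.16 ± 0.18 (SE, adjusted p = 0.00111)), and 45G3 was the lowest of the 9 clones there. All of these were stable. AOPEP, an aminopeptidase, was highest in 47C2 among the 9 clones with 112.6 and 106.4 in 47C2 and 46.6 and 52.9 in 45G3 (1.11 ± 0.20 (SE, adjusted p = 0.00456)), but the adjusted p was 0.0751 and 0.0531 without its replicate 1 and 2.

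**Figure D2:**
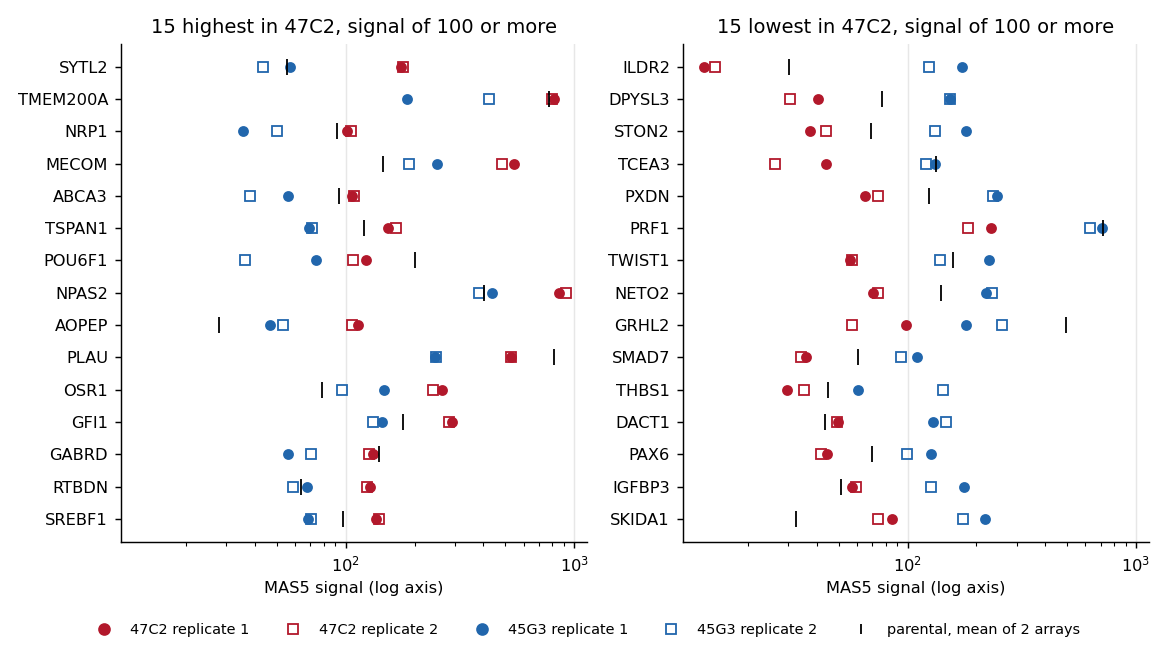
MAS5 signal (log axis) of the 15 genes highest and the 15 genes lowest in 47C2 among genes past the test with a signal of at least 100 in the brighter clone; each symbol is 1 array (red 47C2, blue 45G3; filled replicate 1, open replicate 2), and the black bar is the mean of the 2 parental arrays. Absence of overlap between red and blue symbols was a condition of selection of the 30 genes. The blue pair is often wider than the red pair, as in TMEM200A.

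The mutated gene itself did not pass the test between the clones. IDH2 had signals of 166.1 and 165.4 in 47C2 and 176.8 and 139.3 in 45G3, a difference of 0.08 ± 0.21 (adjusted p = 0.894) with a 95% interval of -0.36 to 0.52. The highest IDH2 level of the series was in 8G12, with 242.4 and 305.1. IDH1, the cytosolic enzyme, had 1382.4 and 1286.2 in 47C2 and 1538 and 1256 in 45G3 (-0.06 ± 0.12 (SE, adjusted p = 0.846)). The array does not tell the mutant from the wild-type transcript, so these values check no label. None of the 8 isocitrate and 2-hydroxyglutarate dehydrogenase genes passed the test (median 0.01). D2HGDH, which oxidises D-2-hydroxyglutarate, had 53.7 and 71 in 47C2 and 51.5 and 96.3 in 45G3 (-0.19 ± 0.27 (SE, adjusted p = 0.78)).

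Of the 51 tested dioxygenases that use 2-oxoglutarate, 1 passed the test (1.96%, beside 2.93% of all genes), RIOX1, a ribosomal oxygenase, with 207.7 and 217.5 in 47C2 and 291.9 and 319.9 in 45G3 (-0.52 ± 0.11 (SE, adjusted p = 0.0147)). The median of the list was 0.02. Without replicate 1 of 47C2, replicate 2 of 47C2, replicate 1 of 45G3 and replicate 2 of 45G3 the members past the test were 0, 0, 2 and 0, and the counts with 1 array left out are given in this order for the lists that follow. TET3, a DNA demethylase, had signals of 341.5 and 326.3 in 47C2 and 441.2 and 529.9 in 45G3 (-0.53 ± 0.15 (SE, adjusted p = 0.0747)), and the prolyl hydroxylase EGLN3, which marks hypoxia-inducible factor for degradation, had 52.3 and 47 in 47C2 and 85.1 and 75.4 in 45G3 (-0.67 ± 0.19 (SE, adjusted p = 0.0638)). None of 35 genes of the tricarboxylic acid cycle and 2-oxoglutarate metabolism and none of 32 genes of DNA methylation and Polycomb passed the test.

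The question of the series concerned EMT, and ZEB1, CDH1, VIM and EPCAM did not pass the test between the clones. ZEB1 had signals of 325.1 and 285.3 in 47C2 and 306.8 and 231.7 in 45G3, with overlapping arrays and a difference of 0.19 ± 0.15 (SE, adjusted p = 0.542). CDH1, the gene of E-cadherin, had 524.3 and 515.9 in 47C2 and 734.1 and 558 in 45G3 (-0.30 ± 0.14 (SE, adjusted p = 0.282), 95% interval -0.59 to -0.01). VIM, the gene of vimentin, had 340.1 and 328.4 in 47C2 and 264.4 and 238.8 in 45G3 (0.41 ± 0.16 (SE, adjusted p = 0.202), 95% interval 0.07 to 0.75). Both arrays of 47C2 were below those of 45G3 for CDH1 and above them for VIM. EPCAM, an epithelial adhesion molecule, had 1700.7 and 1793.1 in 47C2 and 1838.9 and 1908.1 in 45G3 (-0.10 ± 0.11 (SE, adjusted p = 0.695)). The intervals of CDH1 and VIM lie on 1 side of 0, but neither gene passed the test after adjustment over all genes.

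Against the mean of the 7 clones of other genotypes both lines stood on the same side at ZEB1, VIM and CDH1. ZEB1 differed from the mean of these clones by 0.62 ± 0.11 (adjusted p = 0.00209) in 47C2 and by 0.43 ± 0.11 (adjusted p = 0.0333) in 45G3. The values of VIM were 0.92 ± 0.12 (adjusted p = 0.000133) and 0.51 ± 0.12 (adjusted p = 0.0243). For CDH1 they were -0.73 ± 0.10 (adjusted p = 0.000251) and -0.44 ± 0.10 (adjusted p = 0.0234). These comparisons share their 14 reference arrays. Of the 7 clones, 2H1 and 3A4 lay further to the same side than either line. Their signals were 384.3 to 443 for ZEB1, 366.2 to 416.1 for VIM and 450 to 493.7 for CDH1.

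The EMT score, the mean log2 level of the mesenchymal markers minus that of the epithelial markers, was -0.50 and -0.50 in the arrays of 47C2 and -0.50 and -0.79 in those of 45G3. Replicate 1 of 45G3 thus had the score of 47C2, and its distance to replicate 2 was larger than the distance between the clone means, -0.50 ± 0.0021 and -0.65 ± 0.20 (SD, n = 2). Both clones lay between 16F8 (-1.28), 17H5 (-1.24), parental (-1.09) and 8G12 (-1.05) on the one side and 3A4 (-0.19) and 2H1 (0.04) on the other, with 2C11 (-0.71) next to 45G3. With 2 arrays against 2, no exact permutation test can pass, and none was made.

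Single EMT genes did differ. Of 37 epithelial markers 3 were lower in 47C2 and none was higher (8.11%, beside 2.93% of all genes; median -0.10), and with 1 array left out 2, 0, 5 and 2 members passed. GRHL2, a transcription factor that maintains the epithelial state, had 98.7 and 57 in 47C2 and 180.3 and 258.2 in 45G3 (-1.50 ± 0.25 (SE, adjusted p = 0.00231)), although the 2 arrays of each clone were far apart. RAB25, a GTPase of apical recycling, had 547.4 and 510.6 in 47C2 and 761.9 and 853 in 45G3 (-0.61 ± 0.10 (SE, adjusted p = 0.00232)). S100A14 had 169 and 162.7 in 47C2 and 229.8 and 367.5 in 45G3 (-0.80 ± 0.18 (SE, adjusted p = 0.0194)), and its adjusted p was 0.209 without replicate 2 of 45G3. Of 22 mesenchymal markers 1 was higher and 1 lower (9.09%; median 0.09; 1, 2, 3 and 3 with 1 array left out). The higher one was PLAU, and the lower one TGFBI, a matrix protein induced by TGF-beta, which was dim in both clones with 0.7 and 2.8 in 47C2 and 24.5 and 18.7 in 45G3 (-2.63 ± 0.48 (SE, adjusted p = 0.00512)). Of 10 EMT transcription factors tested, TWIST1 was lower in 47C2, and FOSL1, a subunit of AP-1, was higher with 1445.4 and 1422.2 in 47C2 and 961.2 and 1034.4 in 45G3 (0.52 ± 0.10 (SE, adjusted p = 0.00815)), which is 20% of that list (with 1 array left out 1, 1, 2 and 2). SNAI1 and SNAI2 did not pass the test and were dim, with signals of 9.1 to 25 and 11.1 to 23.3.

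The list of TGF-beta and BMP response genes held more calls than most, and mostly lower ones in 47C2. Of 27 tested members 6 were lower and 1 was higher, 25.9% of the list beside 2.93% of all genes, with a median of -0.13 beside 0.01. TGF-beta and BMP ligands act through receptor kinases on SMAD proteins, and their targets include their own inhibitors. Without replicate 2 of 45G3 the list had 0 members higher and 5 lower, without replicate 1 it had 2 members higher and 4 lower, and without replicate 1 or replicate 2 of 47C2 no member was higher and 3 were lower.

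Inhibitors of the pathway were 3 of the 6 lower members. SMAD7, the inhibitory SMAD that blocks the receptor and is a classical target of TGF-beta, had signals of 35.9 and 34.1 in 47C2 and 109.9 and 93.9 in 45G3. The arrays of 47C2 lay below those of every other clone, and those of 45G3 above those of the parental line and 16F8, a difference of -1.48 ± 0.17 (SE, adjusted p = 7.56e-05). BAMBI, a pseudoreceptor that blocks signalling, had 130 and 128.2 in 47C2 and 232.5 and 255.5 in 45G3 (-0.91 ± 0.13 (SE, adjusted p = 0.000871)). SKIL, a repressor of SMAD-dependent transcription, had 220.4 and 240.1 in 47C2 and 417.5 and 354.3 in 45G3 (-0.74 ± 0.18 (SE, adjusted p = 0.0289)). Neither array of 45G3 reached down to 47C2 in these genes, as in every gene past the test that was lower in 47C2. SMAD7 and BAMBI were stable whereas SKIL was not.

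A ligand, a binding protein and a target were lower as well. TGFB2, a TGF-beta ligand, had 69.3 and 71 in 47C2 and 194.2 and 127.5 in 45G3 (-1.14 ± 0.21 (SE, adjusted p = 0.00512)). LTBP1, which stores latent TGF-beta in the matrix, had 92.8 and 100.1 in 47C2 and 229.3 and 155.6 in 45G3 (-0.96 ± 0.18 (SE, adjusted p = 0.00664)). ID4, a helix-loop-helix inhibitor induced by BMP signals, had 6.4 and 5.9 in 47C2 and 33.9 and 26.2 in 45G3 (-1.94 ± 0.25 (SE, adjusted p = 0.000259)), below the median of the array in 47C2, as in 3A4 with 5.7 and 4.2. GDF15, a stress-induced member of the ligand family, was higher in 47C2 with 705.3 and 723.8 in 47C2 and 512.7 and 408.4 in 45G3 (0.64 ± 0.16 (SE, adjusted p = 0.0422)).

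The receptors and the other ID genes did not pass the test. TGFBR1 had a difference of -0.41 ± 0.13 (SE, adjusted p = 0.1) and TGFBR2 of 0.16 ± 0.12 (SE, adjusted p = 0.519). ID1, ID2 and ID3 had differences of 0.29, -0.12 and 0.17, with adjusted p-values of 0.394, 0.661 and 0.657. PMEPA1, another inhibitory target, had signals of 69 and 63 in 47C2 and 47.1 and 24 in 45G3 and so pointed upwards (0.92 ± 0.33 (SE, adjusted p = 0.153)). THBS1, a matrix protein that activates latent TGF-beta, was lower with 29.6 and 35.2 in 47C2 and 60.4 and 143.2 in 45G3 (-1.47 ± 0.29 (SE, adjusted p = 0.00982)), and without replicate 2 of 45G3 the adjusted p was 0.135.

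**Figure D3:**
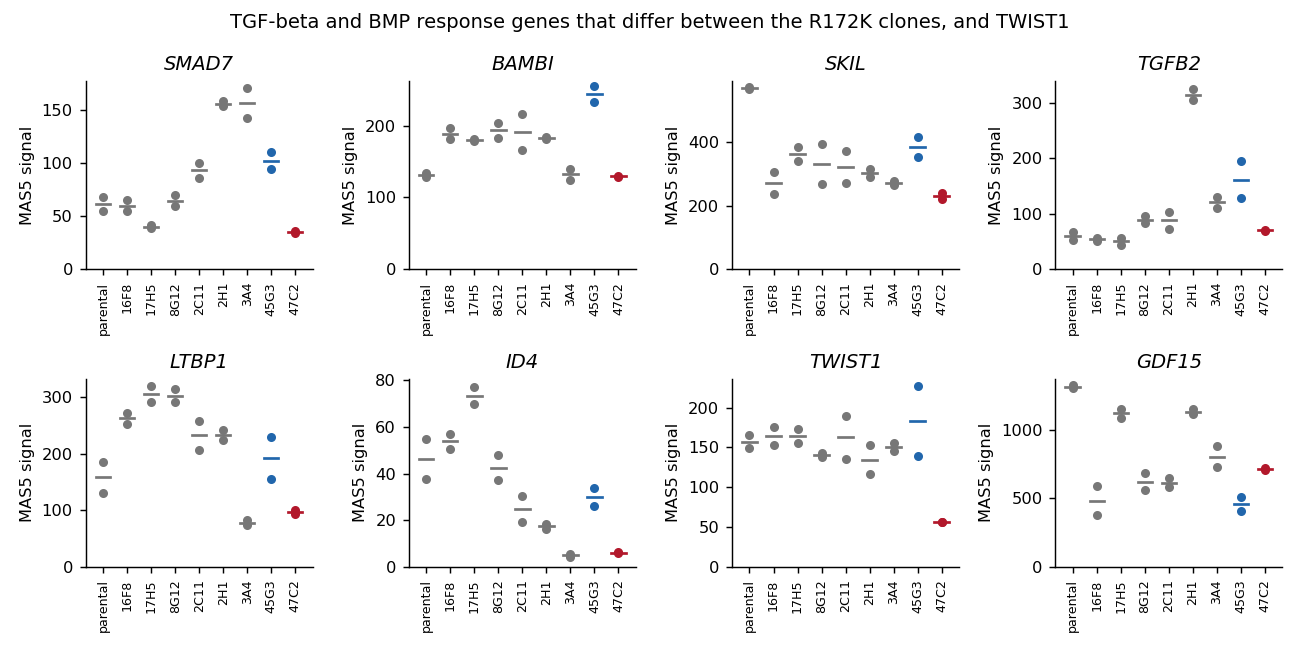
MAS5 signal (linear axis from 0) of the 7 TGF-beta and BMP response genes past the test and of TWIST1 in all 9 clones; points are arrays, the short line is the mean of 2 arrays, 47C2 is red, 45G3 blue and the other clones grey. TWIST1 is at 55.8 and 56.8 in 47C2 and above 100 in every other clone, and SMAD7 is lowest in 47C2 with 35.9 and 34.1.

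Extracellular proteases and their inhibitors differed in both directions, 4 higher and 4 lower of 29 tested (27.6%). PLAU, the urokinase plasminogen activator, had signals of 531.3 and 529.3 in 47C2 and 246.8 and 248.3 in 45G3, a difference of 1.09 ± 0.12 (SE, adjusted p = 6.22e-05) or 2.13-fold, and was stable. The replicates of each clone were within 2 signal units of each other. Its receptor gene PLAUR, counted below with the NF-kB and inflammatory genes and not here, was higher as well. PLAUR had 720.8 and 741.8 in 47C2 and 578 and 493.9 in 45G3 (0.45 ± 0.12 (SE, adjusted p = 0.0445)). PLAT, the tissue plasminogen activator, was lower, with 42.3 and 44.6 in 47C2 and 72.4 and 69.6 in 45G3 (-0.68 ± 0.16 (SE, adjusted p = 0.0303)). The 2 plasminogen activators thus differed in opposite directions. MMP7, a matrix metalloproteinase of epithelia, had 43.8 and 47.5 in 47C2 and 15.8 and 24.4 in 45G3 (1.13 ± 0.28 (SE, adjusted p = 0.0331)). KLK6, a kallikrein, was lower with 319.1 and 338.9 in 47C2 and 476.9 and 578 in 45G3 (-0.67 ± 0.11 (SE, adjusted p = 0.00305)). TFPI and ADAM19, named to complete the count, were also higher. TIMP3 and MMP13 were also lower, with signals of at most 5 in 47C2 and 16.5 in 45G3. With 1 array left out the members past the test were 1, 3, 5 and 3, so that without replicate 1 of 47C2 the count fell from 8 to 1.

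Of 26 axon guidance genes 4 were higher in 47C2 and none was lower (15.4%, median 0.01). NRP1, a co-receptor of class 3 semaphorins and of VEGF, had 101.3 and 104.9 in 47C2 and 35.6 and 49.9 in 45G3 (1.25 ± 0.27 (SE, adjusted p = 0.0191)). SEMA3A, a secreted ligand of NRP1, had 91.5 and 94.3 in 47C2 and 39.7 and 39.2 in 45G3 (1.19 ± 0.21 (SE, adjusted p = 0.00327)), although its 1 other probe set above the median had the opposite sign. The transmembrane semaphorins SEMA6A and SEMA6B had differences of 0.88 ± 0.19 (SE, adjusted p = 0.0152) and 0.75 ± 0.20 (SE, adjusted p = 0.047). With 1 array left out 1, 0, 5 and 2 members passed, none of them without replicate 2 of 47C2, and none of the 4 was stable.

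Of 37 hypoxia-induced and glycolytic genes 4 were lower in 47C2 and 1 was higher (13.5%, median 0.03). The glucose transporter SLC2A3 had 296.6 and 325.8 in 47C2 and 770.4 and 642 in 45G3, a difference of -1.17 ± 0.13 (SE, adjusted p = 7.56e-05), with the same sign at both other probe sets. Its close copy SLC2A14 may share the probes. SLC2A1, the main glucose transporter of proliferating cells, had 765.2 and 846 in 47C2 and 1233.6 and 1167.2 in 45G3 (-0.58 ± 0.09 (SE, adjusted p = 0.00225)). BNIP3, a mitophagy receptor, and ADM, adrenomedullin, had differences of -0.46 ± 0.10 (SE, adjusted p = 0.0137) and -0.40 ± 0.10 (SE, adjusted p = 0.031). These 4 genes were all below 45G3 in both arrays of 47C2, as was every gene past the test that was lower in 47C2. BHLHE40, a hypoxia-induced repressor of the clock, was higher with 417 and 405.5 in 47C2 and 278.3 and 249.8 in 45G3 (0.64 ± 0.13 (SE, adjusted p = 0.0105)). Only SLC2A3 of these 5 was stable, and the list counts with 1 array left out were 1, 2, 5 and 3. VEGFA did not pass the test but pointed upwards, with 667.7 and 621.8 in 47C2 and 360.5 and 341.2 in 45G3.

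Lipid genes differed in both directions, 2 higher and 2 lower of 29 (13.8%; 1, 1, 2 and 4 with 1 array left out). SREBF1, the gene of SREBP-1, had 135.6 and 139.1 in 47C2 and 68 and 70.5 in 45G3 (0.97 ± 0.18 (SE, adjusted p = 0.00585)), and ACSS2, which makes acetyl-CoA from acetate, had 200.6 and 196.5 in 47C2 and 120.4 and 94.3 in 45G3 (0.88 ± 0.15 (SE, adjusted p = 0.0027)). HMGCS1, an early enzyme of sterol synthesis, and STARD4, a sterol carrier, were lower by differences of -0.46 ± 0.12 (SE, adjusted p = 0.0496) and -0.57 ± 0.15 (SE, adjusted p = 0.0423). Of 32 genes of the amino acid response under ATF4, 2 were higher and none lower (6.25%; 1, 1, 2 and 2 with 1 array left out). SLC7A11, the cystine transporter, had 906.2 and 870.7 in 47C2 and 454.4 and 654.9 in 45G3 (0.70 ± 0.13 (SE, adjusted p = 0.00423)). NUPR1, a stress-induced nuclear protein, had 12.4 and 20.1 in 47C2 and 4.2 and 4.3 in 45G3 (1.48 ± 0.25 (SE, adjusted p = 0.00305)), near or below the median of the arrays.

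Adhesion and signalling lists held few members each. Of 26 cell junction genes NECTIN2 was higher with 300.5 and 285.7 in 47C2 and 190 and 183.8 in 45G3 (0.64 ± 0.15 (SE, adjusted p = 0.0223)) and NECTIN3, another adhesion receptor of adherens junctions, was lower with 434.9 and 420.9 in 47C2 and 822 and 950.5 in 45G3 (-1.04 ± 0.10 (SE, adjusted p = 1.4e-05)). CLDN2, a claudin of leaky tight junctions, was lower too (-0.80 ± 0.20 (SE, adjusted p = 0.0401)). Over the alternative settings the difference of NECTIN2 fell to 0.32 at the lowest, and its adjusted p in limma reached 0.662. Of 21 integrin and laminin genes ITGB4 of hemidesmosomes was higher (0.56 ± 0.14 (SE, adjusted p = 0.0347)) and ITGB8, whose integrin activates TGF-beta, was lower, with 38.3 and 35.5 in 47C2 and 82.6 and 96.6 in 45G3 (-1.23 ± 0.23 (SE, adjusted p = 0.00674)). NECTIN3 was the stable one of these 5. With 1 array left out, 1, 1, 2 and 2 of the junction genes (11.5% in all arrays) and 0, 0, 3 and 0 of the integrins and laminins (9.52%) passed.

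Of 20 YAP and TEAD targets 3 were lower and none higher (15%, median -0.13; 1, 1, 3 and 3 with 1 array left out). IGFBP3, a binding protein of insulin-like growth factors, had 57.2 and 59.5 in 47C2 and 176 and 127 in 45G3 (-1.33 ± 0.21 (SE, adjusted p = 0.00129)), and AMOTL1 and TGFB2 were the others. The classical targets CCN1 and CCN2 had differences of 0.14 and -0.06 that did not pass the test. Of 23 Wnt and colon stem cell genes RNF43, a ligase that removes Wnt receptors, was lower with 235.6 and 248 in 47C2 and 393.7 and 424.4 in 45G3 (-0.75 ± 0.10 (SE, adjusted p = 0.000508)), as was TNFRSF19 (-1.41 ± 0.36 (SE, adjusted p = 0.0427)), 8.7% of the list (1, 1, 1 and 2 with 1 array left out).

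Of 35 genes of ERBB and MAPK signalling 3 were higher and none was lower (8.57%), but without the one or the other array of 47C2 none passed (0, 0, 3 and 4 with 1 array left out). ETV1, an ETS factor, had 725 and 698.1 in 47C2 and 460.3 and 382.1 in 45G3 (0.76 ± 0.19 (SE, adjusted p = 0.0356)), with the same sign at all 4 other probe sets. DUSP4, a phosphatase that feeds back on ERK, had 1046.6 and 1080.1 in 47C2 and 661.5 and 695.8 in 45G3 (0.65 ± 0.13 (SE, adjusted p = 0.00815)). EPHA4, an ephrin receptor, was the third (1.05 ± 0.24 (SE, adjusted p = 0.0211)). Of 26 NF-kB and inflammatory genes LIF, an interleukin-6 type cytokine, and PLAUR were higher (7.69%; 0, 0, 2 and 0 with 1 array left out). Of 33 interferon-induced genes IFITM1 was higher, with 39.3 and 42.3 in 47C2 and 16.2 and 11.1 in 45G3 (1.46 ± 0.25 (SE, adjusted p = 0.00305)), and IFI6 and OAS1 were lower (-0.93 ± 0.17 (SE, adjusted p = 0.00453) and -1.16 ± 0.29 (SE, adjusted p = 0.0401)), 9.09% of the list (1, 0, 2 and 4 with 1 array left out). Probes of IFITM1 may also bind transcripts of its close copies.

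Single members of further lists passed the test. The imprinted gene PEG10 had 256.7 and 194.8 in 47C2 and 590.8 and 439.7 in 45G3 (-1.18 ± 0.17 (SE, adjusted p = 0.000594)), and 45G3 was the highest of the 9 clones. No other gene of the 18 imprinted ones tested passed (5.56%, beside 2.93% of all genes; 1, 1, 3 and 1 with 1 array left out). HOXB7 and PAX6 were lower among 29 homeobox genes (6.9%). CA2, a carbonic anhydrase, was lower among 9 gut lineage genes (11.1%). MICA, a ligand of the receptor NKG2D, was lower among 19 antigen presentation genes (5.26%). CDC25B, a phosphatase that drives entry into mitosis, was the higher one of 48 mitotic genes with 1619.2 and 1645.3 in 47C2 and 1159.7 and 1149.4 in 45G3 (0.50 ± 0.10 (SE, adjusted p = 0.0103)). The lipid transporter ABCA3 was higher among 21 transporters, with 106.1 and 108.4 in 47C2 and 55.9 and 37.9 in 45G3 (1.18 ± 0.20 (SE, adjusted p = 0.0026)). SNAP25, a protein of vesicle fusion and the 1 of 5 tested neural markers past the test (20%), had 72 and 64.4 in 47C2 and 24 and 23.9 in 45G3 (1.43 ± 0.33 (SE, adjusted p = 0.0262)), and no neural marker passed with any 1 of the 4 arrays left out. Without 1 array the homeobox genes past the test were 1, 1, 2 and 1 and the gut lineage genes 0, 0, 0 and 2. The antigen presentation genes were 0, 0, 1 and 1, the mitotic genes 0, 0, 1 and 0 and the transporters 1, 1, 1 and 2. With all arrays 2.08% of the mitotic genes and 4.76% of the transporters passed. The shares of such single calls lie near that of all genes in several lists.

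No member passed in the lists of p53 targets (31 tested), endoplasmic reticulum chaperones (26), heat shock and metallothionein genes (16), keratins (6), S100 proteins and annexins (19), cancer-testis antigens (7), mismatch and double-strand break repair (19), DNA replication and G1/S genes (54), respiratory chain subunits (45) and cytosolic ribosomal proteins (50). In the latter lists small differences pointed mostly one way. Of the ribosomal genes 49 of 50 were above 0 with a median of 0.18, which became 0.04 without replicate 2 and 0.32 without replicate 1 of 45G3. Of the respiratory chain genes 37 of 45 were above 0 (median 0.09), and of the replication genes 41 of 54 were below 0 (median -0.10), beside 52.1% of all genes above 0. Without replicate 2 of 45G3 these medians were 0.03 and -0.05, and without its replicate 1 they were 0.16 and -0.19. The bar plot of the lists shows their shares.

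**Figure D4:**
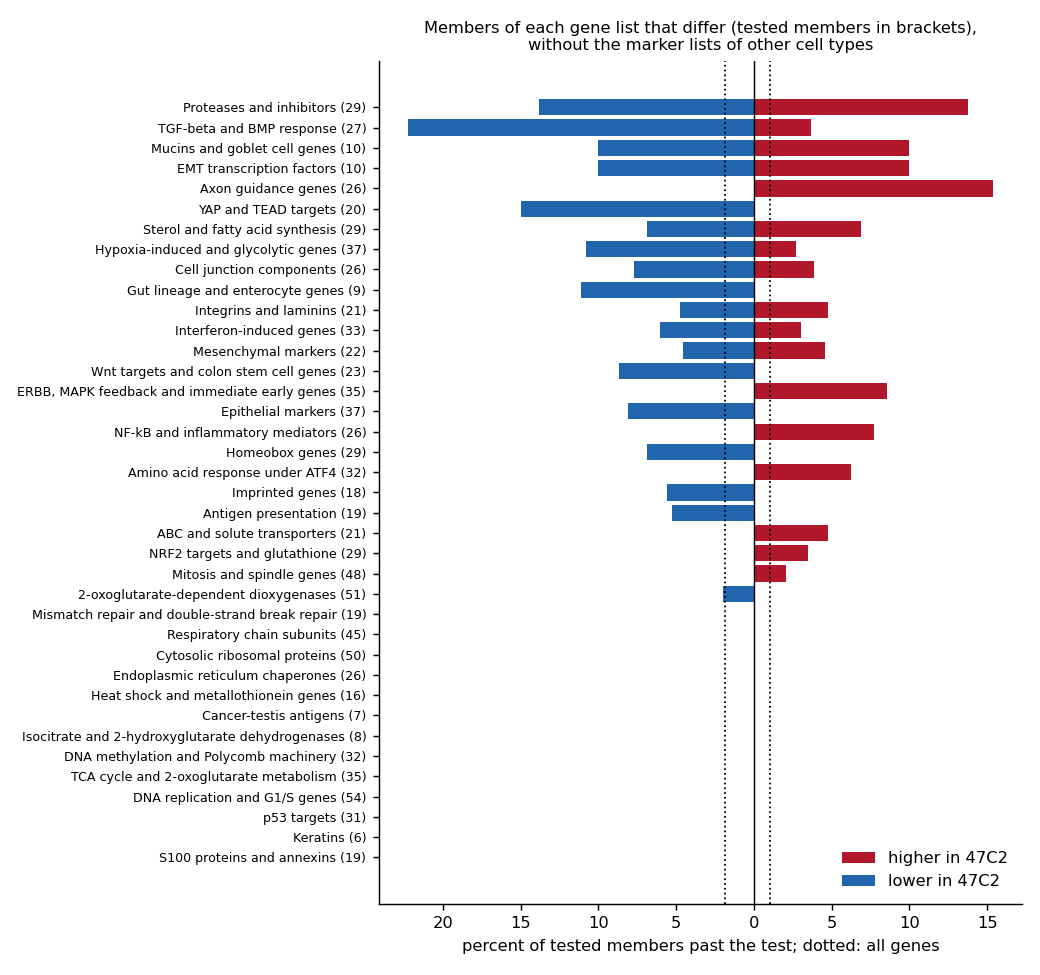
Percent of the tested members of each gene list, without the marker lists of other cell types (number tested in brackets), that passed the test, to the right where higher in 47C2 (red) and to the left where lower (blue); dotted lines mark the shares over all 12541 genes, 1.05% and 1.87%. The TGF-beta and BMP response has the longest blue bar, the axon guidance genes the longest red bar, and 13 of the lists drawn have no bar.

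The place of the pair among all clones was not symmetrical. Of the 36 pairs of clones, 4 had fewer genes past the same test than 47C2 and 45G3. The nearest clone to 45G3 was 2C11 with IDH1 R132H, at 88 genes (0.702%), followed by 16F8 with 268 (2.14%), 47C2 with 367 and 8G12 with 371. The nearest clone to 47C2 by this count was 45G3, and 8G12 (777), 16F8 (804, 6.41%) and 2C11 (825) followed. By the root mean square of the log2 differences 45G3 (0.319) was nearest too. Next by that measure came 2C11 (0.358), 2H1 (0.371), 16F8 (0.380) and 8G12 (0.386). Against the parental line 3511 genes (28%) differed in 47C2 and 3738 (29.8%) in 45G3. With 1 array of 45G3 left out, 2C11 remained nearest to it, with 141 genes without replicate 1 and 88 without replicate 2. With 1 array of 47C2 left out, 45G3 remained nearest to it with 91 and 94 genes, and 2C11 came next with 166 and 167.

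**Figure D5:**
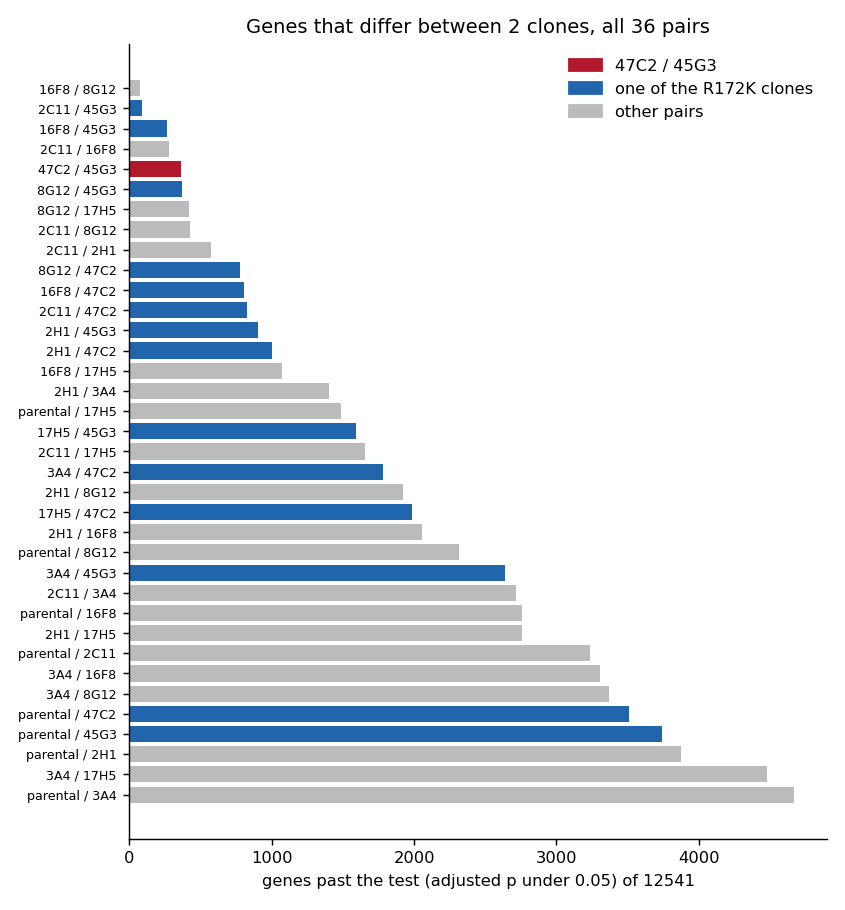
Number of genes past the test (adjusted p under 0.05, of 12541) in each of the 36 pairs of clones, ordered by number; the pair 47C2 and 45G3 is red, pairs with 1 of these clones are blue and the other pairs grey. The pair of the same mutation, at 367, comes after 2C11 and 45G3 at 88 and 16F8 and 45G3 at 268.

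Each clone was also set against the mean of the 7 clones of other genotypes. 47C2 differed at 1059 genes (8.44%), 418 higher (3.33%) and 641 lower (5.11%), and 45G3 at 554 (4.42%), 244 higher (1.95%) and 310 lower (2.47%). With 1 array of the clone itself left out, the number was 178 and 155 for 47C2 and, without replicate 2, 237 for 45G3, whereas without replicate 1 of 45G3 it was 716. Of the 367 genes, the mean of 47C2 lay outside the range of the 7 clones while 45G3 lay inside in 104 (28.3%, beside 13.4% of all genes), and 45G3 alone lay outside in 77 (21%, beside 13%). These genes were chosen by the distance between the clones, so nothing is read from the larger shares.

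Named genes show both arrangements. GALNT3 differed from the 7 clones by -3.02 ± 0.14 (adjusted p = 1.11e-09) in 47C2 and by -0.24 ± 0.14 (adjusted p = 0.349) in 45G3. TWIST1 had -1.40 ± 0.15 (adjusted p = 1.58e-05) and 0.22 ± 0.15 (adjusted p = 0.434). AOPEP had 1.32 ± 0.15 (adjusted p = 2.51e-05) and 0.22 ± 0.15 (adjusted p = 0.435). In these 3 genes the value of 47C2 was the one past the test.

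In others the value of 45G3 was. PLAU differed from the 7 clones by 0.28 ± 0.09 (adjusted p = 0.0665) in 47C2 and -0.81 ± 0.09 (adjusted p = 8.42e-05) in 45G3. SLC2A3 had 0.07 ± 0.10 (adjusted p = 0.703) and 1.25 ± 0.10 (adjusted p = 2.49e-06), and PEG10 had 0.17 ± 0.13 (adjusted p = 0.46) and 1.35 ± 0.13 (adjusted p = 1.15e-05). ILDR2, finally, passed the test in both with opposite signs, -1.75 ± 0.18 (adjusted p = 8.79e-06) and 1.48 ± 0.18 (adjusted p = 0.00013). The comparisons share their reference arrays, and the values stand here side by side only.

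The other pairs of clones with one genotype share no arrays with 47C2 and 45G3. 2H1 and 2C11 (IDH1 R132H) differed at 578 genes (4.61%) and 17H5 and 8G12 (IDH2 R140Q) at 422 (3.36%). Of these, 100 genes were past the test in both the R172K and the R132H pair, which is 27.2% of the 367 and 17.3% of the 578. With the R140Q pair 54 genes were shared, 14.7% of the 367 and 12.8% of the 422. Between 47C2 minus 45G3 and 2H1 minus 2C11, 72 of the 100 shared genes had the same sign and 28 the opposite. With 17H5 minus 8G12 the numbers were 47 and 7 of the 54. Across all 12541 genes, which are not independent replicates, the differences of 47C2 minus 45G3 correlated at 0.222 with those of 2H1 minus 2C11 and at 0.0273 with those of 17H5 minus 8G12. The sign of each pair's difference depends on which clone is named first.

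Each of the autosomes and chromosome X held at least 4 genes past the test. The medians of single chromosomes lay between -0.03 and 0.05. Chromosome 13 had the largest share past the test, 14 of 210 genes (6.67%), 3 higher and 11 lower in 47C2, and on chromosome X 10 of 390 genes were lower and none was higher. Over 25 neighbouring tested genes, medians ran from -0.16 at the first percentile to 0.16 at the 99th, and the highest window, on chromosome 19 from RPL18 to SLC17A7, had a median of 0.23 with no gene past the test. The next highest windows, on chromosomes 17, 19 and 10, held 1 gene higher, 2 higher, and 1 higher and 1 lower. The lowest windows went further from 0 and held calls as well. On chromosome X from LOC286437 to KLHL13 the median was -0.30 with 3 genes lower in 47C2, on chromosome 5 from PPIP5K2 to PGGT1B it was -0.27 with 1 gene higher and 2 lower, and on chromosome 11 from ZNF214 to IRAG1 it was -0.27 with 4 lower.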

How the data were processed

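The authors deposited 1 MAS5 intensity per probe set and array on a linear scale, per the submitters' processing notes; its version and settings: not given in the sources used here. Deposited intensities ran from 0 to 8500.9, array medians from 12.3 to 15.6, and the mean of the middle 96% was 149.98 in each array. Of the probe sets 41097 carried 1 gene symbol (41037 matched to RefSeq, GRCh38.p14), 1801 several, 11721 none, and 62 were controls. Precision is limited by the number of arrays.

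Signals were analysed as log2 (signal + 2.2), the 25th percentile of all values. A probe set was kept when both arrays of 1 clone reached the array median, with the probe set of highest mean for each of 12541 genes of 19775. limma 3.58.1 in R 4.3.3 (lmFit, eBayes with trend, 9 residual degrees of freedom, 1 mean per clone, all 18 arrays) gave two-sided p-values, adjusted by Benjamini-Hochberg over all genes at 0.05. The steps were tested on simulated data with 200 changed genes. Of 169 genes past the test 13 (7.69%) were unchanged ones. Log2 differences of 0.5, 1, 1.5 and 2 passed in 42%, 72%, 98% and 100%. All clones were given the same spread per gene there, so the unequal spread of 47C2 and 45G3 was not covered. Plots were made in matplotlib 3.10.9 under Python 3.11.15.

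Named were IDH1, IDH2, ZEB1, CDH1, VIM and EPCAM; the 15 highest and 15 lowest genes past the threshold with a mean signal of at least 100 in the brighter clone; any that lay under the median in one clone and at 100 or more in the other, of which there were none; the 5 highest and lowest of each clone against the 7 others; and up to 6 members of each list. The genes ranked by difference also had to have no overlap between the arrays of 47C2 and 45G3, which all 367 genes met. The members, lists and rules were chosen with earlier results of these data known. No set test was made. Genes of chromosome Y and XIST stay in the counts, 1 of them past the threshold, and their levels are not shown. The alternatives covered the offset, the filter, the normalization, the choice of probe set, the variance model, the threshold, array subsets, the replicate number as a block, leaving out each array or clone and, chosen after seeing the data, array weights. Replicate numbers did not pair the arrays: deviations of same-numbered arrays correlated at -0.356 to 0.384 over 36 pairs of clones and at 0.0271 for 47C2 and 45G3.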

Additional observations from a re-analysis of the deposited data

Results flagged for a closer look

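The effects of 47C2 and 45G3 against the parental line passed the test in opposite directions at 15 of all 12541 genes (0.12%). The naming rule had selected 10 of them. The parental values cancel in the difference between the effects, which is the difference 47C2 minus 45G3 given above. Genes were flagged only where it passed, so its passing adds nothing. The parental arrays are shared by both effects, so only the values are given. Of the 10 genes 8 lay below the parental line in 47C2 and above it in 45G3.

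ILDR2 differed from the parental line by -1.005 (adjusted p = 0.00425) in 47C2 and by 2.23 (adjusted p = 3.45e-06) in 45G3, and the difference between these effects was -3.23. For DPYSL3 the effects were -1.09 (adjusted p = 0.00106) and 0.96 (adjusted p = 0.00257), with a difference of -2.05. STON2 had -0.73 (adjusted p = 0.00528) and 1.14 (adjusted p = 0.000164), a difference of -1.87. For these 3 genes the clone 45G3 was at or above the level of 16F8, with differences from it of 1.11 (adjusted p = 0.0162), 0.05 (adjusted p = 0.948) and 0.02 (adjusted p = 0.977).

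PXDN had -0.81 (adjusted p = 0.000564) in 47C2 and 0.95 (adjusted p = 0.000137) in 45G3, a difference of -1.76. NETO2 had -0.93 (adjusted p = 7.04e-05) and 0.70 (adjusted p = 0.000822), a difference of -1.62. The inhibitory SMAD gene SMAD7 had -0.76 (adjusted p = 0.00312) and 0.73 (adjusted p = 0.00403), a difference of -1.48, and it passed in opposite directions against 16F8 as well, with -0.72 (adjusted p = 0.0156) and 0.76 (adjusted p = 0.023). PAX6 had -0.67 (adjusted p = 0.00793) and 0.67 (adjusted p = 0.00743), a difference of -1.34, and NECTIN3 had -0.75 (adjusted p = 4.53e-05) and 0.29 (adjusted p = 0.039), a difference of -1.04.

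GFI1 and SEMA3A lay the other way. GFI1 had 0.69 (adjusted p = 0.000742) in 47C2 and -0.36 (adjusted p = 0.0447) in 45G3, a difference of 1.05, and SEMA3A had 0.62 (adjusted p = 0.0336) and -0.58 (adjusted p = 0.0435), a difference of 1.19. Against 16F8 both clones were higher at SEMA3A, with 2.61 (adjusted p = 3.03e-07) and 1.42 (adjusted p = 0.000697).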

How the results depend on the processing

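The number of genes that differed between 47C2 and 45G3, 367 (235 of them lower in 47C2), changed by over 1.5 times in these settings: 79 (26 and 53) with the 4 R172K arrays alone, 234 (80 and 154) with the 8 IDH2-mutant arrays, 137 (45 and 92) at an adjusted p under 0.01 and 112 (31 and 81) with a difference of at least 1 on the log2 scale. Fewer arrays or a stricter threshold enter by construction. With 1 array left out it ran from 91 to 550 (20 to 263 higher, 66 to 287 lower), the extremes coming from arrays of these clones. Array weights gave 2.4 to the arrays of 47C2 and 0.564 to those of 45G3, and 350 genes (134 and 216). With the replicate block 385 genes differed (144 and 241), and 84 of 85 named calls held. Fewer held elsewhere, 37 with the 4 R172K arrays alone and 62 with the 8 IDH2-mutant arrays. With the probe set of highest variance 63 held, with no filter 65, and with median centring or eBayes without trend 66. The other offsets, quantile normalization and array weights kept 80 to 83. Against the 7 other clones the left-out arrays gave 155 to 1215 genes for 47C2 (23 to 500 higher, the rest lower) and 237 to 716 for 45G3 (98 to 318 higher). For 45G3 there were 238 (98 higher) without the parental clone and 847 (381 higher) without 2C11, and 385 were higher without 16F8. The cause was not tested. The EMT score of 47C2 was -0.57, -0.25 and -0.091 at offsets of 1, 16 and 50, -0.497 after quantile normalization and -1.50 with the probe sets of highest variance; that of 45G3 was -0.29 at an offset of 50 and -1.77 with those probe sets, and 45G3 stayed below 47C2 in each setting where both are given. None of the 85 called genes of the naming rule and of the 10 other called genes in the text changed sign in an alternative that gave a value. Among uncalled genes the sign of the difference turned for IDH1 (0.032) and ZEB1 (-0.097) with the probe set of highest variance. With 1 array left out IDH1 ran from -0.21 to 0.086, IDH2 from -0.092 to 0.25 and ZEB1 from -0.011 to 0.39. Signals under the array medians are read only as low, since no detection calls were used here.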

Other observations

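Further genes past the test between the clones, outside the naming rule, are given here and were chosen after their values were seen. PIK3R1, the regulatory subunit of phosphoinositide 3-kinase, had signals of 424.3 and 461.4 in 47C2 and 243.1 and 251 in 45G3 (0.84 ± 0.11 (SE, adjusted p = 0.000344)). MEF2C, a transcription factor of muscle and neural crest, had 107.5 and 105.9 in 47C2 and 262.7 and 216.2 in 45G3 (-1.14 ± 0.15 (SE, adjusted p = 0.000203)), with the same sign at both other probe sets above the median. FZD3, a Wnt receptor, had 79.4 and 77.2 in 47C2 and 154.2 and 134 in 45G3 (-0.86 ± 0.14 (SE, adjusted p = 0.00261)), with the same sign at all 3 others, although with the probe set of highest variance FZD3 did not pass (adjusted p = 0.7435 in limma). All 3 genes passed without each of the 4 arrays in turn.

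MAL2, a membrane protein which acts in transport to the apical membrane, had 559.3 and 595.9 in 47C2 and 1126.1 and 1545.4 in 45G3 (-1.19 ± 0.12 (SE, adjusted p = 3.21e-05)), and FXYD3, a regulator of the sodium pump, had 13.7 and 11 in 47C2 and 33 and 35.5 in 45G3 (-1.33 ± 0.18 (SE, adjusted p = 0.000277)). In 2H1 the mean signals of these genes were 51.1 and 13, and in the parental line 2719 and 197. Both clones thus lay below the parental line, and 47C2 was the lower of the pair. SULT1C2, a sulfotransferase, had 22.1 and 30 in 47C2 and 113.3 and 80.5 in 45G3 (-1.80 ± 0.20 (SE, adjusted p = 6.22e-05)).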
